A study of Mus musculus with 72 samples.

Results

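The Snrpn cluster is a run of imprinted genes on mouse chromosome 7. Its 7 genes examined here, Snrpn, Snurf, Ndn, Magel2, Mkrn3, Peg12 and Ube3a, were chosen by name, and all 7 were among the 22556 genes of the count tables. They were read by chromatin-associated RNA sequencing (ChrRNA-seq), in which RNA is extracted from the insoluble chromatin pellet and is therefore rich in transcripts still being made. The question asked of each gene was how much RNA it gave, from which of its 2 alleles, and whether either measure differed in cells without SmcHD1.

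The samples were 72 libraries of female (XX) mouse embryonic stem cells (mESCs) with the strain label Dom/129S x Cast, and of neural precursor cells (NPCs) made from them. Dom stands for the Mus musculus domesticus (129S) genome and Cast for Mus musculus castaneus. In every line the promoter of Xist on 1 X chromosome had been replaced by a doxycycline-inducible promoter, on the Dom X in iXist-ChrX_Dom (26 libraries) and on the Cast X in iXist-ChrX_Cast (46 libraries). Wild type (WT) cells were compared with SmcHD1 knockout (KO) clone A3 of iXist-ChrX_Dom and with KO clones D5 and G6 of iXist-ChrX_Cast. A3 was the only KO clone of its line, so that genotype and clone cannot be told apart there. All induced cells received doxycycline in N2B27 differentiation medium for 2, 3, 5, 7, 15, 21 or 35 days, with day 52 in iXist-ChrX_Dom only. In the study's protocol, cells were detached on day 7, grown in suspension with the growth factors EGF and FGF, and later replated with them. Days 15 and later thus differ from days 2 to 7 in time, growth factors and culture format, which cannot be told apart here. Uninduced mESCs (ES) were represented by KO clones only. Technical runs of the same replicate were summed, which gave 65 replicates. Days 2 to 7 had 8 replicates each of Dom-line WT, A3, D5 and G6 and 11 of Cast-line WT. Days 15 and later, called late days below, had 1 library per clone and day, so that the 4 or 3 late days served as the replicates of a clone. The study describes the replicates of days 2 to 7 as repeats of the time course, and the labels do not say whether cultures were separate. The p-values measure only the spread between these samples, which may be partly technical.

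The Snrpn cluster lies in the mouse counterpart of the region lost or mis-imprinted in the Prader-Willi and Angelman syndromes. In most tissues Snrpn, Snurf, Ndn, Magel2, Mkrn3 and Peg12 are transcribed from the paternal allele, under the control of an imprinting centre at the main Snrpn promoter that carries DNA methylation on the maternal copy. Ube3a is transcribed from both alleles in most cells and from the maternal allele in neurons, where a long antisense RNA that starts at Snrpn runs through it. SmcHD1 is a chromatin protein required for full silencing of the inactive X and known to act at some imprinted clusters, this one among them. The labels do not say which strain was the mother, and the alleles are therefore named by strain.

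Libraries held 9344054 to 31216487 gene-assigned fragments, of which 44.8 to 50.3% carried a strain variant and could be given to an allele. The Cast share, Cast fragments over Cast plus Dom fragments, was 0.495 to 0.511 over all autosomal genes in every library. The X chromosome followed the labels. Its late Cast share was 0.942 to 0.982 in the line that induces Xist from the Dom X, and 0.0305 to 0.086 in the other line. Smchd1 RNA does not check the knockout, since Smchd1 RNA remained in the KO clones, with median levels on days 2 to 7 of 551 RPM (fragments per 1000000 gene-assigned fragments) in A3, 552 in D5 and 564 in G6 against 566 in Dom-line WT and 615 in Cast-line WT. The cell type labels were checked with fixed marker lists. The 6 mESC markers summed to 88.3 to 842 RPM on days 2 to 7 and 2.82 to 187 RPM on late days, and the 7 neural precursor markers to 34.6 to 240 and 129 to 914 RPM. Sox1, a neural precursor marker, was at 0 in every late group. Fibroblasts formed the feeder layer, which the labels say was removed by repeated pre-plating. The 6 fibroblast markers summed to 6.90 to 149 RPM on days 2 to 7 and 295 to 16117 RPM on late days. None of them was at 0 in a late group, and the source of their RNA was not tested.

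Ube3a lies at chr7:59228749-59306727 on the plus strand (mm10). Snurf (chr7:59982500-60005156) and Snrpn (chr7:59982501-60140219) overlap on the minus strand. Ndn (chr7:62348276-62349927) and Magel2 (chr7:62376978-62381640) lie on the plus strand, followed by Mkrn3 (chr7:62417592-62420139) and Peg12 (chr7:62461870-62464510) on the minus strand. Fragments were counted over the whole transcript, introns included and by strand, and a fragment that overlapped 2 genes on the same strand was given to neither. Snurf lies within Snrpn except for 1 base, so that Snrpn fragments were countable only between 60005157 and 60140219, over 135063 of its 157719 bases. RNA from the main Snrpn/Snurf promoter onward is therefore not in the Snrpn count, which reads transcripts of the upstream Snrpn exons and introns.

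Start regions of Snrpn, Snurf, Ndn, Peg12 and Ube3a are printed here, 250 bases before a RefSeq transcript start (GRCm38.p6, the mm10 assembly). They run 5′ to 3′ on the strand of the gene. The 2 bases of every CpG are in capitals because methylation of CpGs is the mark by which this cluster is imprinted. All 7 genes matched RefSeq by symbol. The first 2 sequences precede upstream Snrpn starts, whose transcripts are those counted for Snrpn. The third precedes the start that Snrpn shares with Snurf, whose transcripts were not countable.

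Snrpn upstream, chr7:60140226-60140475: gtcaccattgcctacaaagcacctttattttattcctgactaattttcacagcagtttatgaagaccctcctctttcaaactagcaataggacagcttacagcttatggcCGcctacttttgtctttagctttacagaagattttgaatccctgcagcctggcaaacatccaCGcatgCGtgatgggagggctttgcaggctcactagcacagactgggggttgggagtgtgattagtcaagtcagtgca

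Snrpn upstream, chr7:60047979-60048228: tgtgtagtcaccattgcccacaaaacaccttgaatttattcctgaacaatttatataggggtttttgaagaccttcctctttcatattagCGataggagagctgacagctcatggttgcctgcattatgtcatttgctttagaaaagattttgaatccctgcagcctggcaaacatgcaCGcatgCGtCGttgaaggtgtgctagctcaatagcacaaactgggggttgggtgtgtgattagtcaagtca

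Snrpn and Snurf, chr7:60005200-60005449: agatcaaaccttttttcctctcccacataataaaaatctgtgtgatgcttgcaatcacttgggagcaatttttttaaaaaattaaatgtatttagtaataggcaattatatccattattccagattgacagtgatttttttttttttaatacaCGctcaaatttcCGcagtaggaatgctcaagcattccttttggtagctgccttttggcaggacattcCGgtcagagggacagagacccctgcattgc

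Ndn, chr7:62348027-62348276: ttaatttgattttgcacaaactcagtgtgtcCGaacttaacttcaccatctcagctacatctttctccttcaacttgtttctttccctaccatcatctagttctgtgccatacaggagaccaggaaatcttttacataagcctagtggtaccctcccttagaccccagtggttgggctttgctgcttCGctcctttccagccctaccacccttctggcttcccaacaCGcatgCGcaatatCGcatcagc

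Peg12, chr7:62464511-62464760: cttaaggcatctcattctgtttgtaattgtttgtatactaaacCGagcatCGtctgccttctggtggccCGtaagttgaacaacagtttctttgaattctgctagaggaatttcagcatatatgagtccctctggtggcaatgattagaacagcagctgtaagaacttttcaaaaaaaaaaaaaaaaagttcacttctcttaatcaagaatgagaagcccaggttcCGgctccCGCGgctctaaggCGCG

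Ube3a, chr7:59228500-59228749: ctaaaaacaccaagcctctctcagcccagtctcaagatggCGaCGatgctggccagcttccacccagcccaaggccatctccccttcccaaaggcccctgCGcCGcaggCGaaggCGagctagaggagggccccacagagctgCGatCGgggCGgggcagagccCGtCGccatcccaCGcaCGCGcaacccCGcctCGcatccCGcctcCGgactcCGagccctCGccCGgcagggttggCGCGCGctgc

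The upstream Snrpn windows at 60140226 and 60047979 shared an unbroken stretch of 32 bases, and a further upstream window at 60450178 shared 34 bases with the first of them. All 3 upstream windows and that of Ndn held CGCATGCG, the centre of the NRF1 motif, which is the same on both strands and stood in 1.54% of 32817 RefSeq start windows of the same length. This motif was searched for after the sequences had been seen. GCCATNTT, the core of the YY1 motif, was found on either strand in the windows of Ube3a and Mkrn3 and in 3.90% of all windows. TGCCGC, the hexamer bound by ZFP57 when methylated, was found on neither strand in any of the 9 member windows and in 8.68% of all windows. Ube3a had 24 CpGs, as many as or more than all but 12.0% of windows, whereas Mkrn3 had 10, Peg12 8, Magel2 7, Ndn 5 and the Snrpn windows 2 to 4, around a median of 6 over all windows.

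Levels between genes were compared per kilobase of gene, for Snrpn of its countable part. The median over 65 replicates was 7.81 RPM per kb for Ube3a, 1.53 for Ndn, 1.11 for Mkrn3, 0.725 for Peg12, 0.591 for Magel2 and 0.0422 for Snrpn. No such level is given for Snurf, which had almost no countable length. Ube3a alone was deeply covered, with 1076452 fragments in all against 13921 for Snrpn, 8307 for Ndn, 6275 for Mkrn3, 5397 for Magel2 and 4750 for Peg12. Snurf, which encodes a small protein from the first exons of the Snrpn transcript, had 0 to 10 fragments per replicate and 22 allelic fragments in all, so that neither its level nor its allele share could be compared.

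Snrpn was the only member read mainly from 1 allele, and that allele was Dom. Over all replicates 1085 of its 9596 allelic fragments were Cast, a share of 0.113. The other measurable members were read from both alleles, with Cast shares of 0.493 for Ube3a (299778 allelic fragments), 0.501 for Ndn (431), 0.545 for Magel2 (743), 0.413 for Mkrn3 (1221) and 0.516 for Peg12 (1319). Of the 65 replicates, 60 had a 95% exact (Clopper-Pearson) interval of the Snrpn share wholly below 0.5 and 5 had an interval that held 0.5. These intervals cover counting error only, and fragments without molecular identifiers are not independent molecules. Per the study, all lines came from 1 parental F1 cell line, so that the Snrpn bias of the clones is not independent. Imprinting and a difference between the strains cannot be told apart here. Allelic depth decided what could be seen in the other genes. Replicates with at least 10 allelic fragments numbered 13 for Ndn, 30 for Magel2, 35 for Peg12 and 49 for Mkrn3, and their intervals held 0.5 in 13, 28, 34 and 46 of them. The exceptions were 2 replicates with a Magel2 interval above 0.5, 1 with a Peg12 interval above 0.5 and 3 with a Mkrn3 interval below it.

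**Figure D1:**
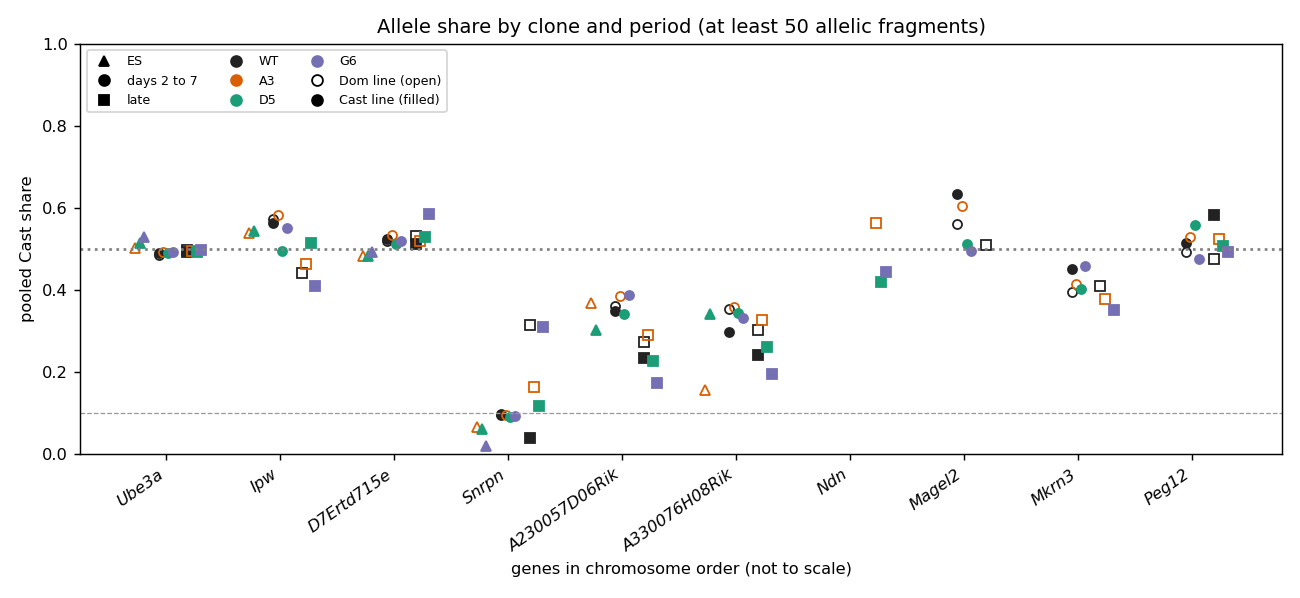
Cast share of allelic fragments, pooled over the replicates of a clone and period, for cluster genes and noncoding RNAs in chromosome order, where at least 50 allelic fragments were available. Shape gives the period and colour the clone, open symbols are the Dom line and filled ones the Cast line, the dotted line marks 0.5 and the dashed line 0.1. Snrpn points lie between 0.0187 and 0.315, and those of Ube3a, Ndn, Magel2, Mkrn3 and Peg12 between 0.352 and 0.635.

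A gene was called read mainly from 1 allele when its pooled Cast share was under 0.1 or over 0.9 with at least 50 allelic fragments. Snrpn met this in 9 of the 13 combinations of clone and period, the exceptions being late Dom-line WT, A3, D5 and G6. No other member met it, in 13 combinations with enough fragments for Ube3a, 10 for Peg12, 8 for Mkrn3, 6 for Magel2 and 3 for Ndn. Among all autosomal genes with that depth the call was rare, at 0.482% in ES of A3, 0.621% in ES of D5 and 0.793% in ES of G6. On days 2 to 7 it was made for 0.985% in Dom-line WT, 0.861% in A3, 0.994% in Cast-line WT, 0.985% in D5 and 0.974% in G6. On late days it was made for 0.481% in Dom-line WT, 0.523% in A3, 0.38% in Cast-line WT, 0.352% in D5 and 0.519% in G6. The Snrpn shares on days 2 to 7 lay close under the limit of 0.1, and with limits of 0.05 and 0.95 Snrpn met the call in 2 combinations, ES of G6 and late Cast-line WT.

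In uninduced cells the 2 A3 replicates had Snrpn Cast shares of 0.107 and 0.0423, the 2 D5 replicates 0.0235 and 0.140, and the G6 replicate 0.0187, which is 7 Cast fragments among 374. On days 2 to 7 the share was 0.0994 ± 0.0400 (SD, n = 8) in Dom-line WT, 0.101 ± 0.0514 (n = 8) in A3, 0.0951 ± 0.0399 (n = 11) in Cast-line WT, 0.0910 ± 0.0683 (n = 8) in D5 and 0.0880 ± 0.0529 (n = 8) in G6. All 43 replicates of these days lay between 0 and 0.249, with a median of 0.0845, and the ranges of all 5 clones overlapped. The 5 group means thus differed by less than the spread within any group.

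Late Dom-line WT cells had higher Snrpn Cast shares. The share was 0.332 on day 15 (220 of 663 allelic fragments), 0.149 on day 21, 0.292 on day 35 and 0.333 on day 52, against 0.0604 to 0.168 in the 8 replicates of days 2 to 7. Pooled over its 4 late libraries it was 0.315 (95% interval 0.282 to 0.349), against 0.098 (0.0812 to 0.117) on days 2 to 7. The difference of the replicate shares was 0.177 (SE 0.0336, 95% interval 0.105 to 0.249, adjusted p = 0.009, limma over 11992 autosomal genes, of which 5.15% were called), and it stayed past the threshold when any of the 12 replicates was left out. Ube3a was the only other member deep enough for this test in Dom-line WT, and its difference of 0.0104 was not called (adjusted p = 0.4).

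A3 was less uniform on late days, with Snrpn shares of 0.188 on day 15, 0.0957 on day 21, 0.0769 on day 35 and 0.542 on day 52, where 13 of 24 allelic fragments were Cast. The difference from days 2 to 7 was 0.124 and did not pass (95% interval -0.0191 to 0.268, limma adjusted p = 0.302, 5.48% of 11914 genes called). The A3 values spanned those of WT, and A3 lay below WT on 3 of the 4 late days. The neuron markers summed to 626, 135, 90.1 and 1162 RPM in the A3 libraries in the order of the days, and to 803, 126, 186 and 428 RPM in Dom-line WT. The fibroblast markers summed to 5072, 839, 1192 and 10411 RPM and to 2243, 410, 2067 and 8151 RPM. The part of other cell types in the Snrpn shares was not tested.

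In Cast-line WT the late shares were 0.0093 on day 15 (1 Cast fragment among 107), 0.231 on day 21 (3 of 13) and 0.1 on day 35 (1 of 10). The difference from days 2 to 7 was 0.0182 (95% interval -0.0612 to 0.0977, limma adjusted p = 0.84, 6.46% of 11711 genes called). It was -0.0858 when 20 allelic fragments were required, so that its direction was not determined at this depth.

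The KO clones of iXist-ChrX_Cast, fitted together, had higher late than early Snrpn shares. D5 had 0.0759 on day 15, 0.24 on day 21 and 0.143 on day 35, the last from 2 Cast fragments among 14. G6 had 0.169, 0.36 and 0.44 on the same days, the last from 11 Cast fragments among 25. Pooled over late days the share was 0.119 in D5 (95% interval 0.0664 to 0.191) and 0.310 in G6 (0.253 to 0.371), against 0.0906 and 0.0937 on days 2 to 7. The difference over both clones was 0.148 (SE 0.0381, 95% interval 0.0698 to 0.227, limma adjusted p = 0.00635), in a comparison in which 22.2% of 11895 genes were called. The late difference of G6 minus D5 was 0.17 in the fit (95% interval 0.0392 to 0.301). It did not pass over 11665 genes (limma adjusted p = 0.428, 0.857% called). The neuron markers summed to 197, 228 and 498 RPM in late D5 and to 186, 617 and 1056 RPM in late G6 on days 15, 21 and 35, and to 104, 166 and 217 RPM in late Cast-line WT, and their part in the shares was not tested.

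**Figure D2:**
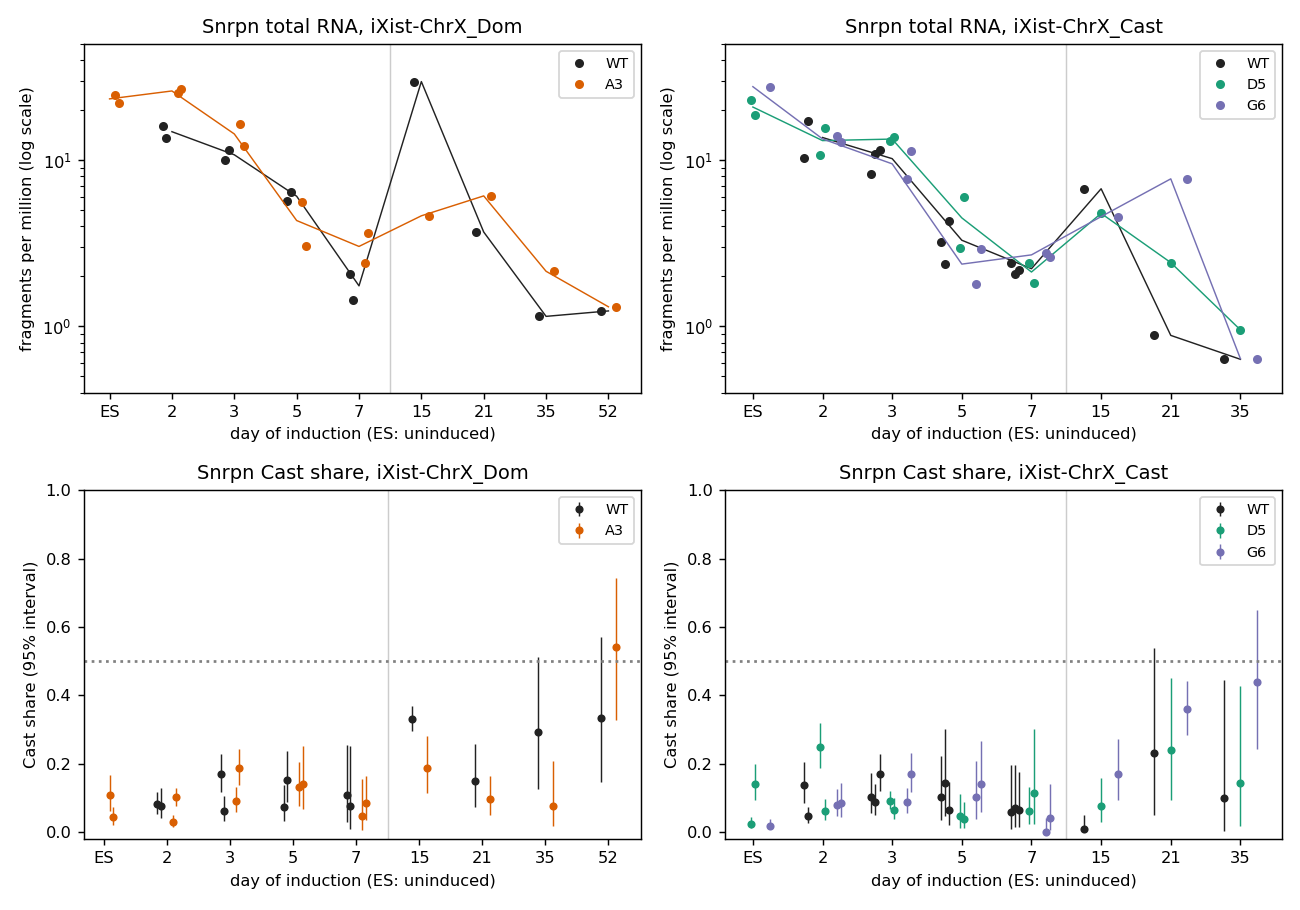
Snrpn total RNA in RPM on a log axis (top, lines join means per day) and Cast share with 95% exact intervals (bottom) by day of induction, in the Dom line (left) and the Cast line (right), coloured by clone, with a vertical line between day 7 and day 15. Total RNA lies between 10.3 and 26.8 on day 2 and between 1.44 and 3.66 on day 7, Dom-line WT stands apart at 29.7 on day 15, and shares over 0.3 occur on late days only.

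The comparison of KO with WT cells asked whether loss of SmcHD1 relaxed the Snrpn allele bias, and no difference passed in either line or period. On late days the KO minus WT difference of the Snrpn Cast share was -0.0511 in iXist-ChrX_Dom (95% interval -0.199 to 0.097, limma adjusted p = 0.905, 0.0253% of 11852 genes called). In iXist-ChrX_Cast it was 0.125 (-0.0197 to 0.269, adjusted p = 0.645), with 0% of 11394 genes called. Each KO share of the Cast line exceeded the WT share of its day, on 3 of 3 late days. The WT shares of days 21 and 35 rested on 13 and 10 allelic fragments, and how often genes at large did the same was not counted. Over days 15, 21 and 35, which both lines have and which leave out day 52 of iXist-ChrX_Dom, the KO effects of the lines differed by 0.262, Cast line minus Dom line (95% interval 0.0695 to 0.455), which did not pass (limma adjusted p = 0.726, 0% of 11523 genes called). On days 2 to 7 the differences were 0.0016 in iXist-ChrX_Dom (95% interval -0.0424 to 0.0456, 0.784% of 12247 genes called) and -0.00724 in iXist-ChrX_Cast (-0.0473 to 0.0328, 0.371% of 12143 genes called). The intervals of days 2 to 7 thus held only differences under 0.05 in either direction, and those of late days were wider. They cover the spread between samples of few KO clones, and so do not bound the effect of SmcHD1 loss itself. The clones D5 and G6 differed by -0.00289 on days 2 to 7 (limma, 5.52% of 12355 genes called). WT cells of the lines differed in Snrpn share by -0.00533 on days 2 to 7 (19.3% of 11987 genes called) and by -0.144 on late days (95% interval -0.306 to 0.018, limma adjusted p = 0.398, 9.13% of 11966 genes called), Cast line minus Dom line.

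The other members were read from both alleles in KO as in WT cells, as far as their depth shows. Ube3a, an E3 ubiquitin ligase, had replicate shares of 0.475 to 0.530 over all 65 replicates, and its KO minus WT differences were 0.00501 and -0.000458 on days 2 to 7 and -0.00218 and 0.00385 on late days, in iXist-ChrX_Dom and iXist-ChrX_Cast. The widest of their 95% intervals ran from -0.0249 to 0.0206. Peg12, a member of the FRAT family of GSK3-binding proteins, had pooled late shares of 0.475 in Dom-line WT, 0.525 in A3, 0.583 in Cast-line WT, 0.508 in D5 and 0.492 in G6. Its late KO minus WT differences of 0.0537 and -0.0701 did not pass (limma adjusted p = 0.863 and 0.744). Mkrn3, which encodes a makorin ring-finger protein, had pooled shares of 0.352 to 0.459 wherever 50 allelic fragments were available. Its share lay below 0.5 in 39 of 49 replicates. Magel2, a MAGE-family gene, had 0.495 to 0.635 where that depth was reached. Ndn, which encodes the MAGE-family protein necdin, reached it on late days only, with 0.564 in A3 (95% interval 0.423 to 0.697), 0.419 in D5 (0.305 to 0.539) and 0.443 in G6 (0.324 to 0.567).

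Total Snrpn RNA was high in uninduced cells and low by day 7. Uninduced A3 cells gave 24.6 and 22.1 RPM, D5 23.1 and 18.7, and G6 27.7. The 10 replicates of day 2 ranged from 10.3 to 26.8 RPM with a median of 14.8, the 11 of day 5 from 1.80 to 6.44 with a median of 3.22, and the 11 of day 7 from 1.44 to 3.66 with a median of 2.396. No day 7 replicate reached the lowest of day 2, so that day 7 lay below day 2 in each of the 5 clones.

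On late days the Snrpn level varied between days and between clones. Dom-line WT gave 29.7 RPM on day 15, then 3.70, 1.15 and 1.24 on days 21, 35 and 52, and A3 gave 4.63, 6.10, 2.15 and 1.31. Cast-line WT gave 6.73, 0.883 and 0.634 on days 15, 21 and 35, D5 4.79, 2.42 and 0.953, and G6 4.57, 7.72 and 0.639. The Dom-line WT library of day 15 was the highest of all 65 replicates for Snrpn, Mkrn3 and Peg12. In the same library the 6 neuron markers summed to 803 RPM, against 126 to 428 RPM in the other late Dom-line WT libraries. The late libraries with higher sums were A3 on day 52 (1162 RPM) and G6 on day 35 (1056 RPM). Their Snrpn levels were 1.31 and 0.639 RPM. The part of neurons in the Snrpn level of the Dom-line WT library was not tested. In bulk samples, fewer cells of a type and less RNA per cell cannot be told apart.

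No difference in Snrpn total RNA between KO and WT cells passed edgeR's quasi-likelihood test. The log2 fold change was 0.43 in iXist-ChrX_Dom (SE 0.21, 95% interval -0.01 to 0.87, adjusted p = 0.375) and 0.07 in iXist-ChrX_Cast (SE 0.14, -0.22 to 0.35, adjusted p = 0.949) on days 2 to 7. It was -0.06 (SE 0.72, -1.89 to 1.76) and 0.65 (SE 0.63, -0.80 to 2.10) on late days. Over all genes 0.803% of 15443 were called in iXist-ChrX_Dom and 0.381% of 15499 in iXist-ChrX_Cast on days 2 to 7. On late days edgeR called 0% of 15229 and 0% of 14963, with 1622 and 1898 genes at an unadjusted p under 0.05, while DESeq2 called 189 and 426.

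With all replicates of a line and period in the edgeR fit and no replicate block, Peg12 was the only member called between KO and WT. In iXist-ChrX_Cast on days 2 to 7, WT replicates gave 0.231 RPM at the lowest, 0.395 at the median and 2.41 at the highest (n = 11), and KO replicates 0.264, 1.75 and 6.87 (n = 16). Peg12 RNA was higher in KO cells by 1.43 on the log2 scale (SE 0.21, 95% interval 0.99 to 1.87, edgeR adjusted p = 0.00256). All KO replicates lay above all WT replicates on days 3, 5 and 7, and the groups overlapped on day 2. The share of all genes that separated in this way was not computed. Either KO clone alone gave the call, with 1.49 for D5 (edgeR adjusted p = 0.00196) and 1.41 for G6 (0.0147). In iXist-ChrX_Dom, WT gave 0.173, 0.658 and 5.06 RPM and A3 0.531, 1.49 and 3.79 at the lowest, median and highest (n = 8 each), and the log2 fold change of 0.90 (95% interval 0.21 to 1.59) did not pass (edgeR adjusted p = 0.218). The highest WT value there was day 7 replicate 1, and without it the fold change was 1.28 and passed (edgeR adjusted p = 0.0341). Late Peg12 log2 fold changes were -0.31 and 0.25 in the Dom and Cast lines, neither called. The Peg12 levels of days 2 to 7 rested on few fragments, 4 in the replicate with the fewest.

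The fitted Ndn level of KO cells was above that of WT cells in each line and period, and none of the 4 differences passed by edgeR with all replicates of a line and period and no replicate block. The log2 fold changes were 0.78 (SE 0.19, adjusted p = 0.0645) and 0.69 (SE 0.18, adjusted p = 0.0763) on days 2 to 7 in the Dom and Cast lines, and 0.66 (SE 0.16, adjusted p = 0.462) and 0.92 (SE 0.26, adjusted p = 0.304) on late days. DESeq2 called all 4, with adjusted p of 0.00409, 0.0125, 0.0389 and 0.0421. On days 2 to 7 edgeR called Ndn without replicate 1 of Dom-line WT on day 7 (0.90, adjusted p = 0.0267), without replicate 3 of Cast-line WT on day 5 (0.80, adjusted p = 0.0401), with D5 as the only KO clone (0.75, adjusted p = 0.0382) and with a replicate block in either line (0.79 and 0.99, adjusted p = 0.0394 and 0.00184). The Ndn calls thus depended on the fit, while the fitted difference was positive in each of these. In iXist-ChrX_Dom on days 2 to 7, WT gave 0.981, 1.62 and 3.24 RPM at the lowest, median and highest and A3 1.38, 3.40 and 4.04 (n = 8 each). Both A3 replicates exceeded both WT replicates on 3 of 4 days. In iXist-ChrX_Cast on days 2 to 7, all KO replicates exceeded all WT replicates on 1 of 4 days and overlapped with them on 3. Late A3 exceeded WT on 3 of 4 days and lay below it on day 52, at 7.07 against 7.36 RPM. How often genes at large separated by day was not counted. In iXist-ChrX_Cast on late days, WT gave 4.98, 8.88 and 12.9 RPM on days 15, 21 and 35, D5 10.8, 25 and 26.9, and G6 7.08, 11.2 and 16.1, so that each KO value exceeded the WT value of its day. The 6 fibroblast markers summed to 295, 2368 and 9342 RPM in those WT libraries, to 2969, 4063 and 16117 RPM in D5 and to 1255, 7257 and 13864 RPM in G6. Their part in the Ndn values was not tested.

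Magel2, Mkrn3 and Ube3a passed in no comparison of KO with WT in the same edgeR fits over all replicates of a line and period. Late Magel2 RNA in iXist-ChrX_Dom was 3.84, 2.75, 3.69 and 2.92 RPM in WT and 3.93, 0.891, 1.69 and 0.538 RPM in A3 on days 15, 21, 35 and 52, a log2 fold change of -1.12 (SE 0.41, edgeR adjusted p = 0.462). In iXist-ChrX_Cast it was 0.80 (SE 0.35, adjusted p = 0.396), and the difference of 1.59 between the lines, over days 15, 21 and 35 without day 52, did not pass (edgeR adjusted p = 0.923, 0% of 15550 genes called). Mkrn3 differed by 0.52 in iXist-ChrX_Cast on days 2 to 7 (SE 0.15, edgeR adjusted p = 0.112), and passed with D5 as the only KO clone (0.69, adjusted p = 0.00772) and without replicate 1 of G6 on day 2 (0.57, adjusted p = 0.0478). Ube3a log2 fold changes lay between -0.03 and 0.18 in the 4 comparisons, the widest interval reaching from -0.21 to 0.57. No member passed between G6 and D5 on late days (edgeR, 0% of 14638 genes called), the measured differences being -0.68 for Ndn and 0.53 for Snrpn, G6 against D5. Over the 6 members tested, the median KO log2 fold change was 0.38 and 0.31 on days 2 to 7 and -0.19 and 0.56 on late days, in the Dom and Cast lines, against 0.01, 0.01, 0.00 and -0.01 over all genes.

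**Figure D3:**
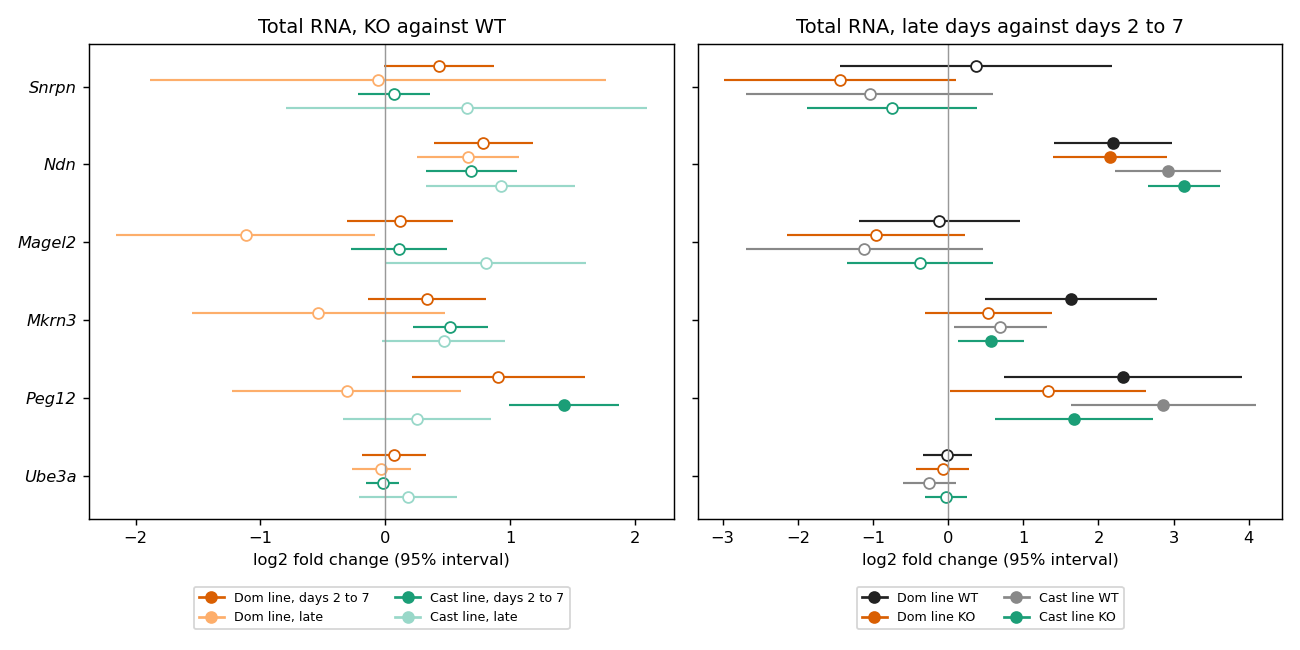
Log2 fold changes of total RNA with 95% intervals for 6 members, KO against WT (left) and late days against days 2 to 7 (right), from edgeR fits with trimmed mean of M-values scaling. Filled points passed an adjusted p of 0.05. Peg12 in the Cast line on days 2 to 7 (1.43) is the only filled point on the left, and Ndn is filled in all 4 comparisons on the right (2.15 to 3.14).

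Between days 2 to 7 and late days, Ndn, Peg12 and Mkrn3 were the members that passed in at least 1 group, and each of their calls was a rise. Ndn rose in all 4 comparisons of late days with days 2 to 7, by 2.20 on the log2 scale in Dom-line WT (SE 0.36, edgeR adjusted p = 0.00106), 2.92 in Cast-line WT (SE 0.33, adjusted p = 1.92e-05), 2.15 in A3 (SE 0.35, adjusted p = 0.00143) and 3.14 in the KO clones of the Cast line (SE 0.23, adjusted p = 3.3e-10). The 43 replicates of days 2 to 7 gave 0.771 to 4.04 RPM with a median of 1.94, and the 17 late ones 3.66 to 26.9 with a median of 9.07. Many genes changed with differentiation, and these comparisons called 43.5% of 15312 genes, 34.1% of 15350, 42.8% of 15260 and 61.8% of 15472 in that order of groups, so that a call here sets Ndn apart little from genes at large.

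Peg12 rose by 2.33 in Dom-line WT (SE 0.73, edgeR adjusted p = 0.0226), 2.86 in Cast-line WT (SE 0.58, adjusted p = 0.00191) and 1.67 in Cast-line KO (SE 0.51, adjusted p = 0.00676), and its difference of 1.32 in A3 did not pass (adjusted p = 0.0907). Its median over replicates was 0.477 RPM on day 2, 0.596 on day 3, 1.92 on day 5 and 3.79 on day 7, so that much of the difference was present before the late days. Mkrn3 rose by 1.63 in Dom-line WT (SE 0.53, edgeR adjusted p = 0.025) and 0.57 in Cast-line KO (SE 0.21, adjusted p = 0.0253), and the latter became 0.17 (adjusted p = 0.518) when libraries were scaled by their totals. Its differences of 0.69 in Cast-line WT (SE 0.29, adjusted p = 0.076) and 0.53 in A3 (SE 0.39, adjusted p = 0.279) did not pass. The Cast-line WT difference passed without the day 15 library (0.97, edgeR adjusted p = 0.0203) and without replicate 2 of day 2 (0.78, adjusted p = 0.0418). In Dom-line WT the day 15 library gave 17.4 RPM of Mkrn3 against 1.81, 2.19 and 6.49 on days 21, 35 and 52. Without that library the Mkrn3 and Peg12 differences were 0.62 and 1.76 and no longer passed (edgeR adjusted p = 0.278 and 0.0956).

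Snrpn differed from days 2 to 7 by 0.37 (SE 0.84) in Dom-line WT, -1.04 (SE 0.77) in Cast-line WT, -1.44 (SE 0.71) in A3 and -0.75 (SE 0.55) in Cast-line KO on the log2 scale, none of them called. Without its day 15 library the Cast-line WT value was -2.80 and passed (edgeR adjusted p = 0.025). The Dom-line WT value was -1.83 without the day 15 library (adjusted p = 0.0683), and -0.62 (adjusted p = 0.0369) when all induced samples of the line were fitted together with a mean for each clone and day, a fit that gives the spread between late days no part in the error. Magel2 was -0.12, -1.11, -0.96 and -0.37 in the same order and was not called. Ube3a was -0.01, -0.25, -0.07 and -0.03, not called, on a scale on which the median gene was within 0.03 of 0. With libraries scaled by their totals the median of all genes fell by 0.25 to 0.38 and Ube3a was called lower in Cast-line WT (-0.49) and Cast-line KO (-0.37). The fibroblast markers rose with the late days in each comparison, 6, 6, 5 and 6 of 6 being called higher, and their part in the rise of Ndn, Peg12 and Mkrn3 was not tested.

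**Figure D4:**
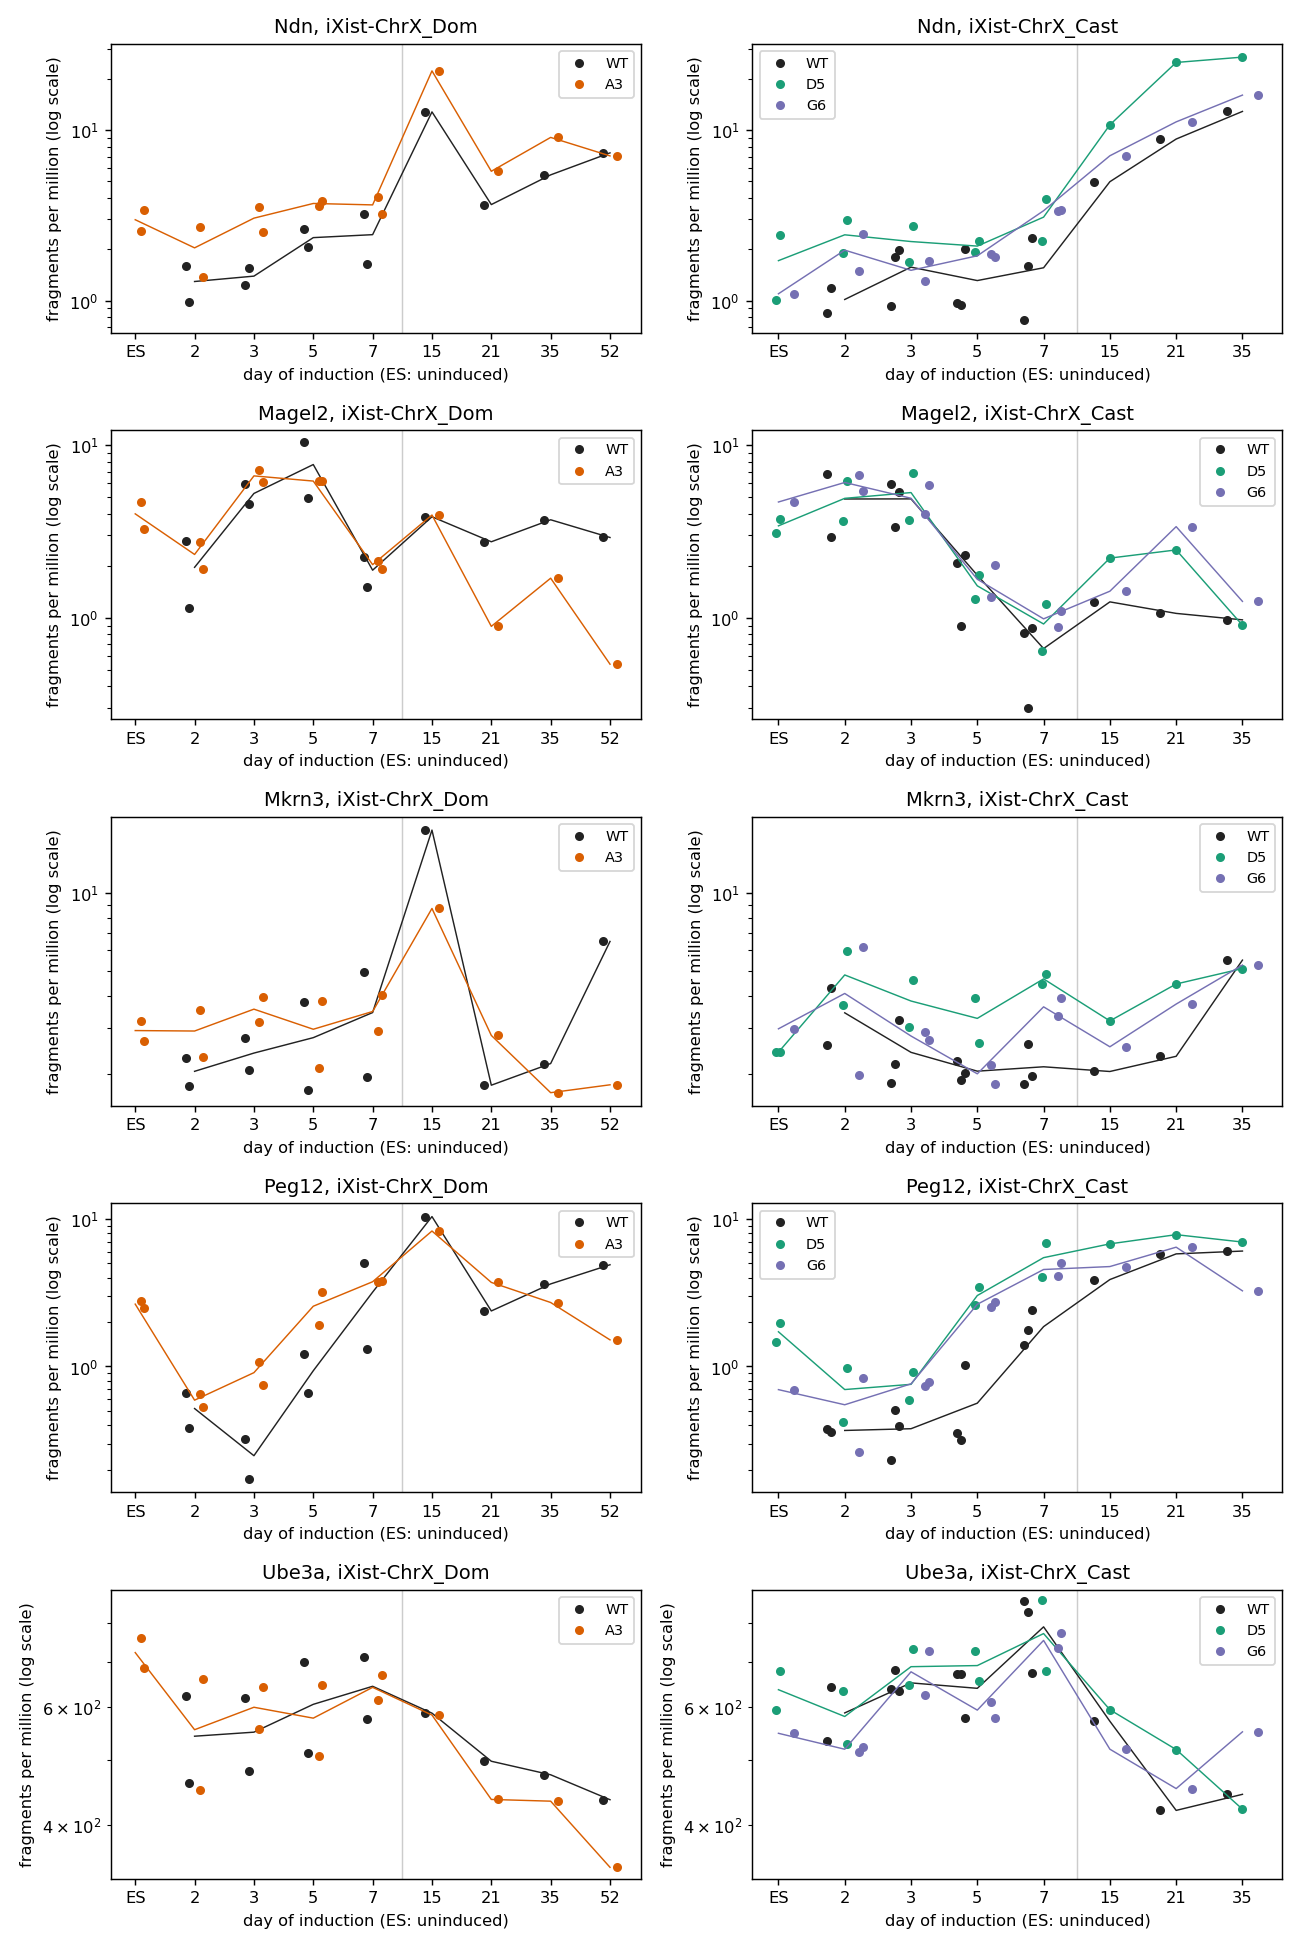
Total RNA of Ndn, Magel2, Mkrn3, Peg12 and Ube3a in RPM on log axes by day of induction, Dom line on the left and Cast line on the right, with points for replicates, lines through means per day and a vertical line between day 7 and day 15. All 17 late Ndn values but that of day 21 in Dom-line WT (3.66) lie above 4.04, the highest value of days 2 to 7.

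The surrounding chromosome was mostly read from both alleles, and several noncoding RNAs of the domain were skewed to Dom. D7Ertd715e, a noncoding RNA at chr7:59969576-59974431 on the same strand as Snrpn and beyond its end, had 463357 fragments and a Cast share of 0.520, with 0.482 to 0.586 over the 13 combinations of clone and period. Ipw, a noncoding RNA between Ube3a and Snrpn, had 0.515. Noncoding RNAs between Snrpn and Ndn lay between Snrpn and an even split, with 0.265 for A230057D06Rik (0.173 to 0.388), 0.292 for A330076H08Rik (0.156 to 0.360) and 0.339 for B230209E15Rik (76 of 224 allelic fragments). A230073K19Rik, antisense within Ube3a, had 0.417 (65 of 156). A230056P14Rik, over 3 Mb from any member at chr7:55962530-55980096 and named after its value was seen, had 0.173 (0.109 to 0.345). Of the 42 flanking genes outside the imprinted cluster with a share, none was read mainly from 1 allele when all replicates were pooled. Their pooled shares ran from 0.284 to 0.686 with a median of 0.470. Snrpn, at 0.113, did not meet the call in that pooling either. By clone and period, Oca2 alone among these neighbours passed the limit, with a Cast share of 0.966 in ES of G6. Among those within 3 Mb of a member, Gabra5 had 0.386, Otud7a 0.359, Klf13 0.387, Chrna7 0.393, Tjp1 0.442, Mtmr10 0.466, Apba2 0.472, Fan1 0.493, Herc2 0.494, Atp10a 0.528, Oca2 0.598, Trpm1 0.633 and Gabrg3 0.686. The shares of Mkrn3 and Magel2 thus fell within the range of non-imprinted neighbours, and that of Snrpn fell outside it.

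Imprinted genes elsewhere were mostly read from both alleles as well. Of 18 paternally expressed genes with enough allelic fragments 0 had a share under 0.1 or over 0.9 and 15 lay between 0.4 and 0.6, and of 14 maternally expressed genes the counts were 0 and 10. The medians were 0.477 and 0.467. Between KO and WT on days 2 to 7, genes of the fixed lists that passed were Sgce (edgeR log2 fold change 0.49, Dom line), Pcsk6 (Cast share difference 0.0644, Dom line) and, in the Cast line, Luzp2 (0.108), Meg3 (-0.0233), Rian (-0.0221) and Mirg (-0.0219) by limma. None of 20 genes for SmcHD1, DNA methylation and imprint maintenance passed in total RNA in any of the 4 comparisons of KO with WT by edgeR. The domain noncoding RNAs passed in none of them either, 6 or 7 being tested. Of the cell type markers, Zfp42 of the mESC list (-1.05) and Pax6 of the neural precursor list (-1.15) were lower in A3 than in Dom-line WT on days 2 to 7 by edgeR, and their part in the Ndn and Peg12 values of those days was not tested.

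Genes with the profile most like that of 3 members were sought over all replicates. Among 13704 genes with a mean of at least 1 RPM, the Spearman correlations with Snrpn over the 65 replicates were highest for Tle4 (0.876), Nyap2 (0.876) and E2f8 (0.874), with Ndn for Chst2 (0.870), Fbn1 (0.854) and Prkar1a (0.850), and with Ube3a for Pcf11 (0.901), Pkn2 (0.867) and Zbtb41 (0.863). Within the cluster, Snrpn had 0.608 with Magel2, 0.0334 with Mkrn3, -0.377 with Ndn and -0.502 with Peg12, and Ndn had 0.815 with Peg12. These values describe libraries that share a time course.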

How the data were processed

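The deposited files hold counts of read fragments per gene for each library, in total and for the Cast and Dom alleles. Per the labels and the study's methods, the authors removed ribosomal reads with Bowtie2 2.3.2, ran STAR 2.4.2a against mm10 with strain variants masked, assigned alleles with SNPsplit and made the counts with featureCounts 1.5.2 by strand over whole transcripts. The authors' tables of X-linked allelic ratios hold no gene of the cluster and were not used. Levels are RPM of all gene-assigned fragments. Total counts of all genes were tested with edgeR 4.0.16 (quasi-likelihood, TMM scaling, filterByExpr) in R 4.3.3, with day as a factor for KO against WT. Cast shares of autosomal genes with at least 10 allelic fragments in over 80% of replicates were tested with limma 3.58.1. P-values were adjusted by Benjamini-Hochberg over all genes tested, threshold 0.05, two-sided. Scripts were tested on simulated data. Alternatives were DESeq2 1.42.0, other scalings, filters and fits, and leaving out replicates. Depth limits Ndn, Magel2, Mkrn3 and Peg12 shares. The members were named in full. List genes were named where they passed between KO and WT or lay within 3 Mb, except a neighbour that is not reported here. Members and lists were chosen with earlier results of these data known.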

Additional observations from a re-analysis of the deposited data

Results flagged for a closer look

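In groups of 4 to 10 replicates, 69 sets of member values were searched for a highest or lowest value that stood apart by Dixon's criterion. There were 5 such values. Chance meets the criterion in about 1 of 20 groups when all values share 1 distribution. The sets pooled the days of a clone and period, between which levels changed, so that this rate does not hold for them. The Dom-line WT library of day 15 gave 29.7 RPM of Snrpn, against 3.70 in the next of the 4 late libraries. Replicate 1 of D5 on day 2 had a Snrpn Cast share of 0.249, against 0.115 in the next of 8. Replicate 1 of Dom-line WT on day 7 gave 5.06 RPM of Peg12, against 1.32 in the next of 8. The A3 library of day 15 gave 8.69 RPM of Mkrn3, against 2.82 in the next of 4. Replicate 1 of G6 on day 2 gave 0.440 RPM of Snurf, against 0.223 in the next of 8.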

How the results depend on the processing

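Of 1111 recomputed values of single members, 54 changed direction, 38 of them on leaving out a replicate. Of those with another setting, the Snrpn difference of late days in Dom-line WT was called, at -0.6173 with all induced samples fitted together, a fit that drops the spread between days from the error. The other 15 were not called. They were, on the log2 scale, Snrpn at 0.002512 (late KO, Dom line, DESeq2) and -0.03773 (days 2 to 7, G6 only), Ube3a in late Dom-line WT at 0.004755, 0.004777, 0.01281 and 0.01129, and Magel2 there at 0.1393. In allele shares they were Snrpn at -0.1017 (days 2 to 7, Dom line, log ratio) and at -0.2179 (log ratio), -1.251 (edgeR) and -0.08579 (20 fragments) in late Cast-line WT, Mkrn3 at 0.02759 and 0.01739, and Ube3a at 0.0002708 and 0.0009576.

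The number of members called between KO and WT in total RNA went from 0 to 1 (Ndn) with DESeq2 in late Dom and Cast lines and in the Dom line on days 2 to 7, from 0 to 1 in both late comparisons with 1 fit per line (Magel2 in the Dom line, Ndn in the Cast line), and from 1 to 3 (Peg12, Ndn and Mkrn3) in the Cast line on days 2 to 7 with DESeq2 or with D5 only. For late against early days the fit per line gave 4 in Cast-line WT (2 as reported), 4 in A3 (1) and 5 in Cast-line KO (3), and library totals gave 3 in Cast-line WT. Over all genes, 124 (Dom line) and 59 (Cast line) were called in total RNA on days 2 to 7, against 550 and 244 with DESeq2, 22 and 103 with the fit per line and, in the Cast line, 114 with library totals, 37 with no filter, 1285 with D5 only and 273 with G6 only. On late days the counts of 0 and 0 became 189 and 426 with DESeq2 and 1256 and 2074 with the fit per line, and for late against early days that fit called 8896 (5237) in Cast-line WT and 10271 (6528) in A3. For shares, edgeR on allelic counts called 10 (3) late and 147 (96) early in the Dom line, D5 alone 112 (0) late and 377 (45) early in the Cast line, and there 20 fragments gave 81, 10 in every sample 75 and separate runs 18. Scaling by library totals moved the share of higher calls on days 2 to 7 in the Dom line from 46.8 to 31.8%, and on late days from 48.7 to 29.1%, 55.1 to 33.4%, 52.1 to 28.4% and 49.3 to 28.8%. With limits of 0.05 and 0.95, Snrpn was read mainly from 1 allele in 2 combinations in place of 9.

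Leaving out each replicate gave 0 to 2 members called in the Dom line and 1 to 2 in the Cast line on days 2 to 7, 1 to 3 for late Dom-line WT and 2 to 4 for late Cast-line WT, where the library without which 4 were called was day 15, with Snrpn at -2.80 (edgeR adjusted p = 0.025). Ranges that crossed 0 were those of Snrpn in late KO against WT (-0.4434 to 0.7346 and -0.06025 to 1.513), on days 2 to 7 in the Cast line (-0.01428 to 0.1338) and in late Dom-line WT (-1.828 to 0.757), of Peg12 in late KO, Dom line (-0.6449 to 0.02925), of Magel2 in late Dom-line WT (-0.2637 to 0.2077) and of Ube3a (-0.09829 to 0.06286 there, -0.007422 to 0.1296 and -0.03531 to 0.006077 in KO on days 2 to 7). In shares they were those of Snrpn in KO, Dom line (-0.01032 to 0.009531 and -0.1376 to 0.003469) and in late Cast-line WT (-0.04046 to 0.07025), and of Ube3a (-0.001882 to 0.001222, -0.0004649 to 0.007751, -0.005541 to 0.001741 and -0.004604 to 0.007485). Leaving out replicates was not run for late against early days in KO clones. Causes not named were not tested.

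Replicate numbers were not taken to pair the samples, since not every same-numbered pair deviated together (correlation over 0.1). In the Dom line 0 of 8 pairs of WT with KO did (-0.767 to -0.543), and in the Cast line 10 of 16 pairs of WT with KO (-0.637 to 0.825) and 8 of 8 pairs of D5 with G6 (0.45 to 0.842). In the Dom line and for D5 with G6, the 2 same-numbered pairs of a day gave the same correlation and are not independent. A replicate block gave 1 member called in the Dom line and 2 in the Cast line on days 2 to 7, the added member being Ndn in each, and 130 and 249 genes in all against 124 and 59. For shares it called 267 genes in the Dom line against 96 and no member. Crossed pairing in the Dom line, chosen after seeing the data, gave 1 member and 540 genes, and 342 for shares.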
